A study of Mus musculus with 24 samples.

Results

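Tnf, the gene of tumour necrosis factor (TNF), was followed together with 9 genes of its receptors and proximal signalling in cultured mouse pulmonary fibroblasts. The 10 genes were taken by symbol from the 55291 gene symbols counted in every library. They are Tnf, the receptors Tnfrsf1a and Tnfrsf1b, the receptor adaptors Tradd, Ripk1, Traf2 and Traf1, the TNF-induced genes Tnfaip2 and Tnfaip8, and Adam17. All 10 passed the filter on low counts, which left 16258 genes for testing. The fibroblasts came from WT or TLR4-/- mice of the C57BL/6 strain aged 4 to 8 weeks, and each group's cells were grown from a pool of 3 to 4 lungs and used at passage 3 to 6. Either genotype received PBS for 24 h, or recombinant mouse cold-inducible RNA-binding protein (rmCIRP, 1 μg/mL), recombinant mouse TGF-β1 (rmTGF-β1, 2 ng/mL) or both. These 8 conditions gave 24 libraries of total RNA, 3 per condition. The sources do not say that the 3 libraries of a condition were separate cultures. The p-values therefore measure the spread between libraries within conditions, estimated together over all 24 libraries.

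TNF is made as a membrane protein, and the protease encoded by Adam17 cuts it to release the soluble cytokine. TNF receptor 1 (Tnfrsf1a) is found on most cell types and recruits TRADD, RIPK1 and TRAF2, which lead to NF-κB activation or to cell death. TNF receptor 2 (Tnfrsf1b) is more restricted, lacks a death domain and binds TRAF2 directly. TRAF1, a partner of TRAF2, is itself a classical NF-κB target gene. TLR4, a receptor for bacterial lipopolysaccharide and for danger signals such as extracellular CIRP, leads to NF-κB by another route. Macrophages are a major source of TNF, and the short-lived Tnf mRNA is controlled by proteins that bind AU-rich elements in its 3′ untranslated region.

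The sequence in front of each gene is shown for the 4 members with the largest rises in WT cells. Each is the 250 bases before the RefSeq start on the GRCm38.p6 assembly, read 5′ to 3′ on the gene's own strand, with any match to the searched motifs in capitals. The motifs were the NF-κB consensus, TATAAA and the AP-1 motif TGANTCA, each on both strands. They do not overlap one another in these windows.
Tnf, chr17:35202008-35202257, minus strand: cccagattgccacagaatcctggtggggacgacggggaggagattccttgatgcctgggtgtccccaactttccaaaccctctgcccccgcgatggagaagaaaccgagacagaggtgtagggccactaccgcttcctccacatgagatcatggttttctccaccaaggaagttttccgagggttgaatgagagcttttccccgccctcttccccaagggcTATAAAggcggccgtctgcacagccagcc
Traf1, chr2:34961773-34962022, minus strand: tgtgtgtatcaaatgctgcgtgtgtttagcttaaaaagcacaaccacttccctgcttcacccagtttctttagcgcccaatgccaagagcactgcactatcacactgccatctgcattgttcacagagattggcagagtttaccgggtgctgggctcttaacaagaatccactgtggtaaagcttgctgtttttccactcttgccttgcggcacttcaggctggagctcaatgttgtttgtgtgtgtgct
Tnfrsf1b, chr4:145246871-145247120, minus strand: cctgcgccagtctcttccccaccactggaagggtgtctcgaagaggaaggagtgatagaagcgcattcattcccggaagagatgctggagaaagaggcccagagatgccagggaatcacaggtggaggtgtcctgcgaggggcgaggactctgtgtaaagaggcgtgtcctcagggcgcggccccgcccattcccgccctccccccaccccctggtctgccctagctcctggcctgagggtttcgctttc
Tnfaip2, chr12:111442411-111442660, plus strand: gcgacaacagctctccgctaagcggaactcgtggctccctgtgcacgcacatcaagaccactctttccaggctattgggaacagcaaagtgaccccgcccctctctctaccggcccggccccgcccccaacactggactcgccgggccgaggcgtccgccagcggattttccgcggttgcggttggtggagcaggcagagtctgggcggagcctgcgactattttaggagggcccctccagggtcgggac

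RefSeq windows were matched for 8 of the 10 genes, in 9 promoters because Ripk1 has more than one start. Only the Tnf window held a TATAAA, 29 to 24 bases before the start, a hexamer found in 12.4% of all 32851 windows of this length. None of the 9 windows held the NF-κB consensus, found in 3.9% of all windows, or TGANTCA, found in 6.75%. These are letter matches within 250 bases. They say nothing about sites farther away, or about sites within the windows that depart from the searched letters. The Tnfaip2 window reaches past the outermost GENCODE M21 start of that gene, which lies upstream of the RefSeq start. The windows differ in base composition, from 48% G or C before Traf1 to 65.6% before Tnfaip2, with 57.6% before Tnf and 62.8% before Tnfrsf1b.

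Past its stop codon, the Tnf mRNA carries the AU-rich stretch through which its decay is controlled. The 30 bases from 437 to 466 after the stop codon hold 5 copies of the pentamer ATTTA, shown in capitals in the GENCODE M21 transcript.
Tnf, AU-rich stretch: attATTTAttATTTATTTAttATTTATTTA
The whole 3′ untranslated region of Tnf holds 8 such pentamers in 764 bases, or 10.5 per kb. Tnfaip8, with 6 in 1877 bases (3.20 per kb), is the next densest, Tnfrsf1a and Tradd have none, and the other 6 members have between 0.566 and 1.60 per kb. The pentamers are a property of the sequence, and no mRNA half-life was measured here.

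Libraries held 29853346 to 39664606 reads assigned to genes, with a median of 33585047. The third labelled TLR4-/- library with both proteins stood apart from its 2 replicates, with a chi-square per degree of freedom of 47.8 and 32.9, and the third with rmTGF-β1 did so less, with 12.5 and 16.3. All other replicate pairs gave 2.58 to 7.33, so every pair differed by more than counting error. The targeted gene does not check the genotype label: with PBS, the normalized count of Tlr4 was 759 ± 41.9 for WT against 903 ± 20.2 for labelled TLR4-/- libraries (SD, n = 3 each), higher by 0.25 on the log2 scale (adjusted p = 0.00123 by edgeR). Gene counts do not show which exons were read, and these libraries are therefore called labelled TLR4-/-. All 10 fibroblast markers were counted in every condition, from Col1a1, a collagen chain, to Tcf21. All 16 macrophage markers were counted too, at a summed normalized count of 80778 to 102634 in WT and 348686 to 450669 in labelled TLR4-/- libraries, most of it from Lyz2 (lysozyme). In bulk cultures such as these, fewer cells of a type and less RNA per cell cannot be told apart.

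In WT cells with PBS, the members covered a wide range of levels. Normalized counts, which are counts divided by the library's size factor, were set per kb of exon for this comparison between genes. Tnfrsf1a had the highest level, 1824 ± 62.4 normalized counts per kb (SD, n = 3), followed by Tnfaip2 with 1015 ± 109 and Tnfrsf1b with 576 ± 36.2. Adam17 (323 ± 3.25) and Tradd (304 ± 13.5), then Ripk1 (219.8 ± 1.59), lay in the middle. Tnf, at 161 ± 17.6, was not separated from Traf2 at 152 ± 3.70 beyond the spread of its libraries. Tnfaip8 stood at 47.2 ± 1.88 and Traf1 at 3.10 ± 0.24 normalized counts per kb. With rmCIRP the order changed at the top and bottom: Tnf had the highest level of the 10, at 4850.1 ± 399.6 per kb, and Traf1 reached 76.2 ± 5.31 per kb, above Tnfaip8 at 63.4 ± 5.20. Exon lengths are those of GENCODE M21, which may not be the release used for counting.

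The first comparison asked how WT fibroblast cultures respond to rmCIRP. Of the 10 members, 7 rose and none fell (adjusted p under 0.1 by the quasi-likelihood test of edgeR, Benjamini-Hochberg adjusted over all genes tested), while 43.9% of all genes tested passed, 19.8% higher and 24.1% lower. The median log2 fold change was 0.32 over the members and -0.02 over all genes tested. The members were chosen with earlier results of these data known, so counts and medians over them, here and below, are a description. On the log2 scale the rises ranged from 4.91 for Tnf to 0.20 for Adam17. The cytokine, its inducible receptor and Traf1 rose most, and the constitutive receptor Tnfrsf1a and its adaptors Tradd and Ripk1 did not pass the test.

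Tnf, the ligand, had normalized counts of 234, 268 and 291 in the 3 WT libraries with PBS. With rmCIRP it had 7474, 7678 and 8696. Every library with rmCIRP was thus more than an order of magnitude above every library with PBS. The log2 fold change of Tnf was 4.91 (SE 0.12, 95% CI 4.66 to 5.16, adjusted p = 2.2e-18). Leaving out any 1 of these libraries kept it between 4.84 and 4.98.

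**Figure D1:**
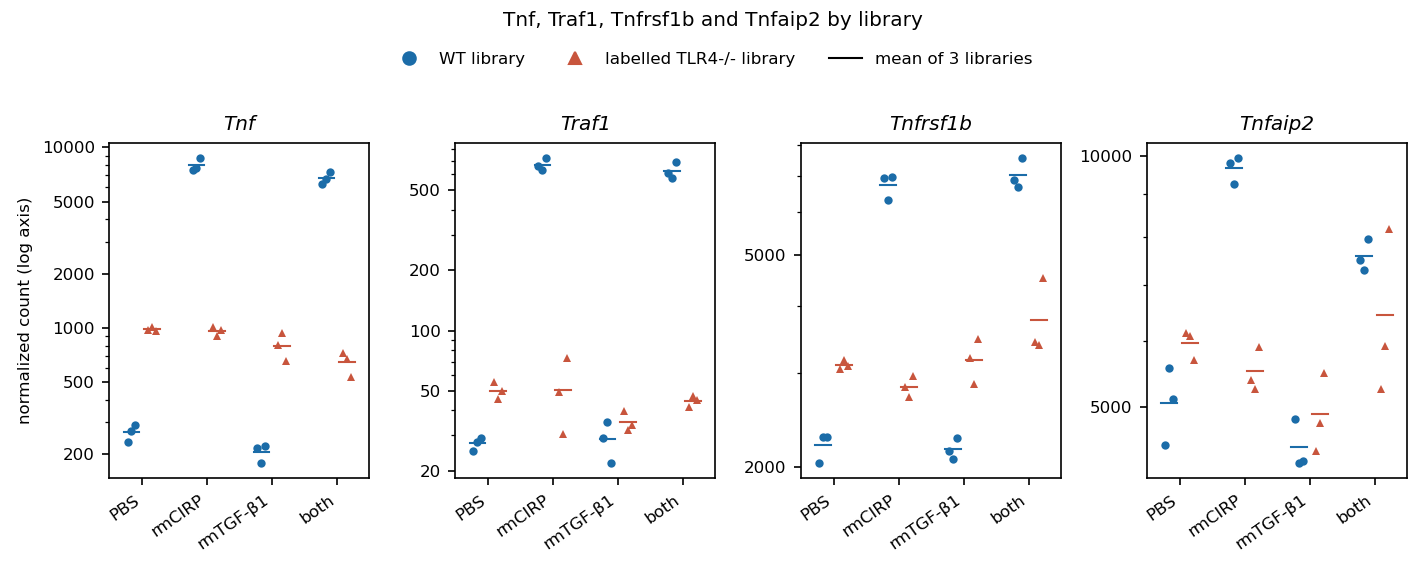
Normalized counts (log axis, a separate scale for each gene) of Tnf, Traf1, Tnfrsf1b and Tnfaip2 in each of the 24 libraries, by treatment, with circles for WT, triangles for labelled TLR4-/- and a line at the mean of the 3 libraries. The WT libraries with rmCIRP, alone or with rmTGF-β1, stand above all other WT libraries in each panel, up to 8696 for Tnf, while the labelled TLR4-/- libraries with rmCIRP alone lie near those with PBS.

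The 2 TNF receptors did not respond alike. Tnfrsf1b, the inducible receptor, had normalized counts of 2041, 2279 and 2283 with PBS and 6326, 6949 and 6972 with rmCIRP. These groups were far apart, a 3.06-fold rise (log2 fold change 1.61, SE 0.09, adjusted p = 1.3e-12). Tnfrsf1a, the constitutive receptor, had 4551, 4758 and 4870.1 with PBS and 4518, 4668 and 4885 with rmCIRP. Its libraries overlapped throughout, and its log2 fold change was -0.02 (95% CI -0.11 to 0.08, adjusted p = 0.814), an interval that leaves room for a change of at most 0.11 in size.

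The adaptors also divided. Traf1, counted at 25.0, 28.0 and 29.1 with PBS, stood at 632, 660.0 and 723 with rmCIRP. Its log2 fold change was 4.61 (SE 0.17, 95% CI 4.26 to 4.96, adjusted p = 2.1e-15), close in size to that of Tnf from a far lower starting level. Traf2, the adaptor that TRAF1 joins, had 763, 771 and 799 with PBS and 890.1, 908 and 940.2 with rmCIRP. The groups did not overlap, but the rise was small, 1.17-fold (log2 fold change 0.23, SE 0.05, adjusted p = 0.00116). Ripk1, the kinase at the branch between survival and death, had 1823, 1829.6 and 1849 with PBS and 1889.9, 1893 and 1915 with rmCIRP. Its libraries did not overlap either, yet the log2 fold change of 0.05 did not pass the test (95% CI -0.05 to 0.14, adjusted p = 0.457). Tradd, the death domain adaptor of TNF receptor 1, had 538, 579 and 584 with PBS against 556, 556 and 568 with rmCIRP, which overlapped, with a log2 fold change of -0.02 (95% CI -0.12 to 0.08, adjusted p = 0.751).

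Of the 2 TNF-induced genes, Tnfaip2 had normalized counts of 4494, 5106 and 5574 with PBS and 9274, 9804 and 9946 with rmCIRP. It rose 1.91-fold (log2 fold change 0.93, SE 0.11, adjusted p = 6.5e-07), with all libraries apart. Tnfaip8, a regulator of cell survival, had 467, 491 and 505 with PBS and 594, 676 and 694 with rmCIRP. Its rise was 1.34-fold (log2 fold change 0.42, SE 0.08, adjusted p = 0.00014). Adam17, which sheds TNF and both receptors, had 2288, 2311 and 2334 with PBS and 2624, 2629 and 2731 with rmCIRP. The libraries did not overlap, and the rise of 1.15-fold was the smallest among the members that passed (log2 fold change 0.20, SE 0.03, adjusted p = 4e-05). Counts of Tnfaip2, Tnfaip8, Traf2, Ripk1 and Adam17 may be affected, up or down, by annotated genes that overlap them on the opposite strand. The strand option of the counting is not given in the sources used here.

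**Figure D2:**
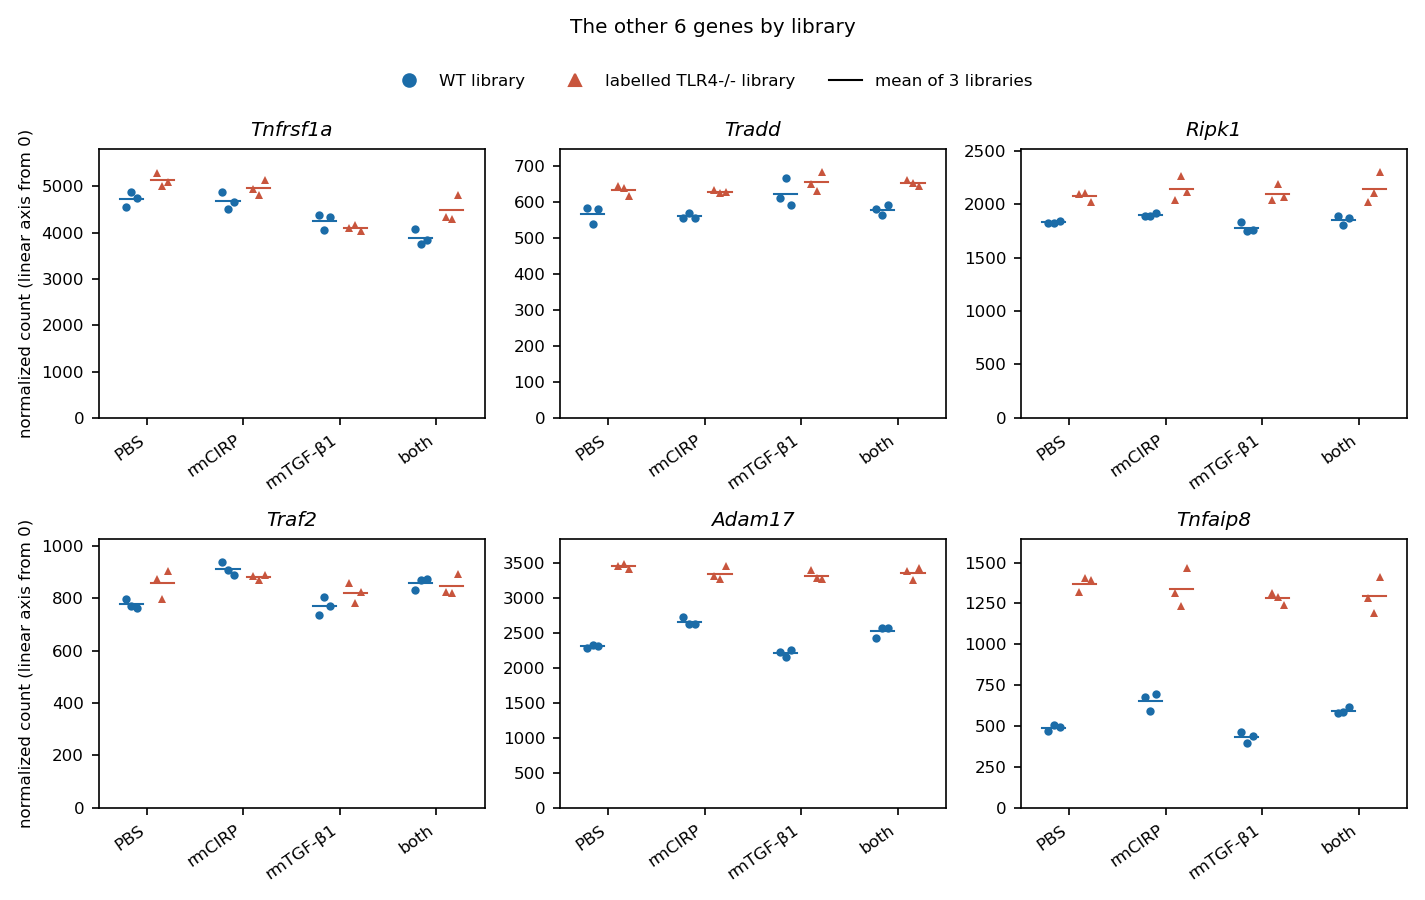
Normalized counts (linear axis from 0) of the other 6 genes in each of the 24 libraries, with circles for WT, triangles for labelled TLR4-/- and a line at the mean of the 3 libraries. Traf2, Adam17 and Tnfaip8 show small rises with rmCIRP in WT cells, and Adam17 and Tnfaip8 are higher in every labelled TLR4-/- library (at least 3255 and 1189) than in any WT library.

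Macrophage markers did not rise as a list beside this response. In WT cells with rmCIRP, 4 of the 16 rose and 11 fell, with a median log2 fold change of -0.34. Of all genes tested, 19.8% were higher and 24.1% lower. The summed normalized count of the 16 was 82214 to 87613, against 94196 to 102634 with PBS. Of 10 fibroblast markers, 2 rose and 6 fell (median -0.30), and of 4 smooth muscle and pericyte markers none rose and 2 fell. Fibroblast markers summed to 617899 to 664524 with rmCIRP and 727613 to 791125 with PBS. Markers of alveolar macrophages summed to 3406 to 3691 with rmCIRP and 1022 to 1256 with PBS, and 2 of 5 rose. The sum of 5 neutrophil markers was 299 to 349.7 with rmCIRP and 129.9 to 158 with PBS, with 3 of the 5 at no more than 3 counts in each library. Per 1000 summed macrophage marker counts, Tnf stood at 2.48 to 2.84 with PBS and at 86.1 to 99.3 with rmCIRP in WT cells. Which cells of the cultures made the Tnf mRNA was not tested.

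With rmTGF-β1 present, rmCIRP moved the same direction in each of the 7 genes that had risen without it. For rmCIRP with rmTGF-β1 against rmTGF-β1 alone in WT cells, 7 members rose and 2 fell, while 42.2% of all genes tested passed (20.5% higher and 21.7% lower). The 3 normalized counts of Tnf under rmTGF-β1 were 180.0, 217 and 222, and those under both proteins were 6238, 6658 and 7329. The groups differed by 5.02 on the log2 scale (SE 0.12, adjusted p = 1.8e-18). Traf1 was at raw counts of 26, 29 and 35 under rmTGF-β1 (28.7 ± 6.53 normalized, SD, n = 3) and at normalized counts of 577, 613 and 694 under both (log2 fold change 4.46, SE 0.17, adjusted p = 3.2e-15). Tnfrsf1b had 2074, 2145 and 2271 against 6678, 6889 and 7569 (log2 fold change 1.70, SE 0.09, adjusted p = 5.8e-13). These 3 genes kept their libraries far apart. The log2 fold changes of the other risers were 0.76 for Tnfaip2, 0.45 for Tnfaip8, 0.18 for Adam17 and 0.15 for Traf2, the last with an adjusted p of 0.0244 that became 0.124 without the first rmTGF-β1 library and 0.122 with no filter on low counts. Tnfrsf1a fell by 0.13 on the log2 scale (adjusted p = 0.0278) and Tradd by 0.11 (adjusted p = 0.0858), both with overlapping libraries. The call for Tnfrsf1a was lost without the second library with both (adjusted p = 0.116). That for Tradd was lost without the second rmTGF-β1 library (-0.06, adjusted p = 0.42) or the first or second library with both. No alternative setting kept it. With no library of the comparison left out, the adjusted p was 0.103 (replicate number as a block) to 0.478 (no filter on low counts) in the 6 other fits. The 0.0858 of the main fit misses a threshold of 0.05.

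Whether rmTGF-β1 altered the WT response to rmCIRP was tested directly as an interaction. It passed for none of the 10 members, and for 0.0492% of all genes tested (8 genes). No member reached an unadjusted p under 0.05. Over the whole table, DESeq2 called 37 genes. The edgeR fit called 125 with only the libraries compared and 198 with no filter on low counts. The interaction on the log2 scale was 0.11 for Tnf (95% CI -0.25 to 0.48), 0.09 for Tnfrsf1b (95% CI -0.16 to 0.34) and -0.15 for Traf1 (95% CI -0.75 to 0.44). These intervals are wide beside the smaller rises but narrow beside the response of Tnf and Traf1 to rmCIRP.

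Set against rmCIRP alone, the addition of rmTGF-β1 went with lower levels of some members. In WT cells with both against rmCIRP, 4 members fell and none rose, while 20.5% of all genes tested passed, 10% higher and 10.5% lower. Tnfrsf1a, with 3748, 3841 and 4079 against 4518, 4668 and 4885, fell by 0.27 on the log2 scale (adjusted p = 0.00022). Tnfaip2, with 7309, 7496 and 7963 against 9274, 9804 and 9946, fell by 0.35 (adjusted p = 0.0304, and 0.106 without the third rmCIRP library or the second with both). In all 4 members that fell, the libraries with both proteins lay below those with rmCIRP alone. Tnf fell by 0.24 (adjusted p = 0.0854), a call lost without the third rmCIRP library (-0.16, adjusted p = 0.351), without the second, without the first or second library with both, and with DESeq2 (adjusted p = 0.121). Adam17 fell by 0.08 (adjusted p = 0.0987), lost without any 1 of the 3 rmCIRP libraries or the first with both (adjusted p between 0.178 and 0.436). No alternative setting kept this call either. With no library of the comparison left out, the adjusted p was 0.109 (replicate number as a block) to 0.67 (no filter on low counts) in the 6 other fits. The 0.0987 of the main fit misses a threshold of 0.05. The values of Traf1 (-0.10) and Tnfrsf1b (0.06) did not pass, and those of the other 4 members lay between -0.14 and 0.04.

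The members called with rmTGF-β1 alone are to be read against the share of all genes tested in each genotype. In WT cells with rmTGF-β1 against PBS, 1 member fell and none rose, and 12.4% of all genes tested passed (5.77% higher and 6.65% lower). The member was Tnfrsf1a, with 4049, 4339 and 4371 against 4551, 4758 and 4870.1 (log2 fold change -0.16, SE 0.05, adjusted p = 0.0353). It was lost without the second rmTGF-β1 library (-0.12, adjusted p = 0.189), the second PBS library (adjusted p = 0.192) or the third (adjusted p = 0.103). Tnf was lower in all 3 libraries with rmTGF-β1 than in any with PBS, but its log2 fold change of -0.35 (SE 0.15) had an adjusted p of 0.155. It passed with DESeq2 (adjusted p = 0.059), with only the libraries compared (adjusted p = 0.0499) and with no filter on low counts (adjusted p = 6.9e-04). Tradd had a log2 fold change of 0.13 (adjusted p = 0.105). It passed with RLE normalization (adjusted p = 0.0954), with a filter at a mean count of 10 (adjusted p = 0.0822), and without the first PBS library (adjusted p = 0.0749) or the third rmTGF-β1 library (adjusted p = 0.0717). The other 7 members lay between -0.18 and 0.05, and of these Tnfaip2 passed under 1 alternative, no filter on low counts, as a fall.

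In labelled TLR4-/- libraries with rmTGF-β1 against PBS, 3 members fell and none rose, and 23.9% of all genes tested passed (12.1% higher and 11.7% lower). Tnfrsf1a, with 4029, 4103 and 4171 against 5017, 5094 and 5298, fell by 0.32 on the log2 scale (adjusted p = 3.8e-05), and its libraries were apart. Tnf, with 657, 800.0 and 934 against 967, 977 and 1009, fell by 0.30 (adjusted p = 0.0583), but without the third rmTGF-β1 library, the lowest, the value was -0.18 (adjusted p = 0.326). That call was also lost without the first rmTGF-β1 library or the first or second PBS library (adjusted p between 0.106 and 0.144). Tnfaip2 fell by 0.28 (adjusted p = 0.0881), lost without any 1 of the PBS libraries or the first or second rmTGF-β1 library (adjusted p between 0.107 and 0.29). Traf1, with 31.9, 33.7 and 39.8 against 45.6, 49.8 and 55.3, had a log2 fold change of -0.51 that did not pass (adjusted p = 0.126). It passed with DESeq2 (adjusted p = 0.0855), with only the libraries compared (adjusted p = 0.0783) and with no filter on low counts (adjusted p = 0.0497). With the third libraries of both rmTGF-β1 conditions left out, 2 members fell, Tnfrsf1a by 0.31 and Tnfaip2 by 0.37. The test of a genotype difference in the response to rmTGF-β1 passed for none of the 10 members. It passed for 0.0861% of all genes (14 genes by edgeR). DESeq2 called 163 genes, and edgeR with no filter on low counts called 563. One of the 10 members had an unadjusted p under 0.05, Tnfrsf1a, with a difference of -0.16 (adjusted p = 0.367), and that of Tnf was 0.05 (95% CI -0.33 to 0.43).

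In the labelled TLR4-/- libraries, no member changed with rmCIRP. None of the 10 had an unadjusted p under 0.05, and 0% of all genes tested passed. Even so, 1136 of the 16258 genes had an unadjusted p under 0.05. DESeq2 called 33 genes, and edgeR with no filter on low counts called 149. Tnf had normalized counts of 967, 977 and 1009 with PBS and 901, 980.1 and 1018 with rmCIRP. The libraries overlapped, and the log2 fold change was -0.02 (95% CI -0.24 to 0.20). Traf1 had 45.6, 49.8 and 55.3 with PBS and 30.6, 49.2 and 72.7 with rmCIRP. Its libraries with rmCIRP were widely scattered at this low level, and the log2 fold change was 0.01 (95% CI -0.42 to 0.44). Tnfrsf1b had 3059, 3096 and 3168 with PBS and 2707, 2827 and 2963 with rmCIRP, all lower, with a log2 fold change of -0.13 that did not pass (95% CI -0.31 to 0.05, adjusted p = 0.831). Tnfaip2 stood at -0.11 (95% CI -0.34 to 0.12), and the other 6 members lay between -0.04 and 0.05. For Tnf, Traf1, Tnfrsf1b and Tnfaip2, these intervals end below the response in WT cells.

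**Figure D3:**
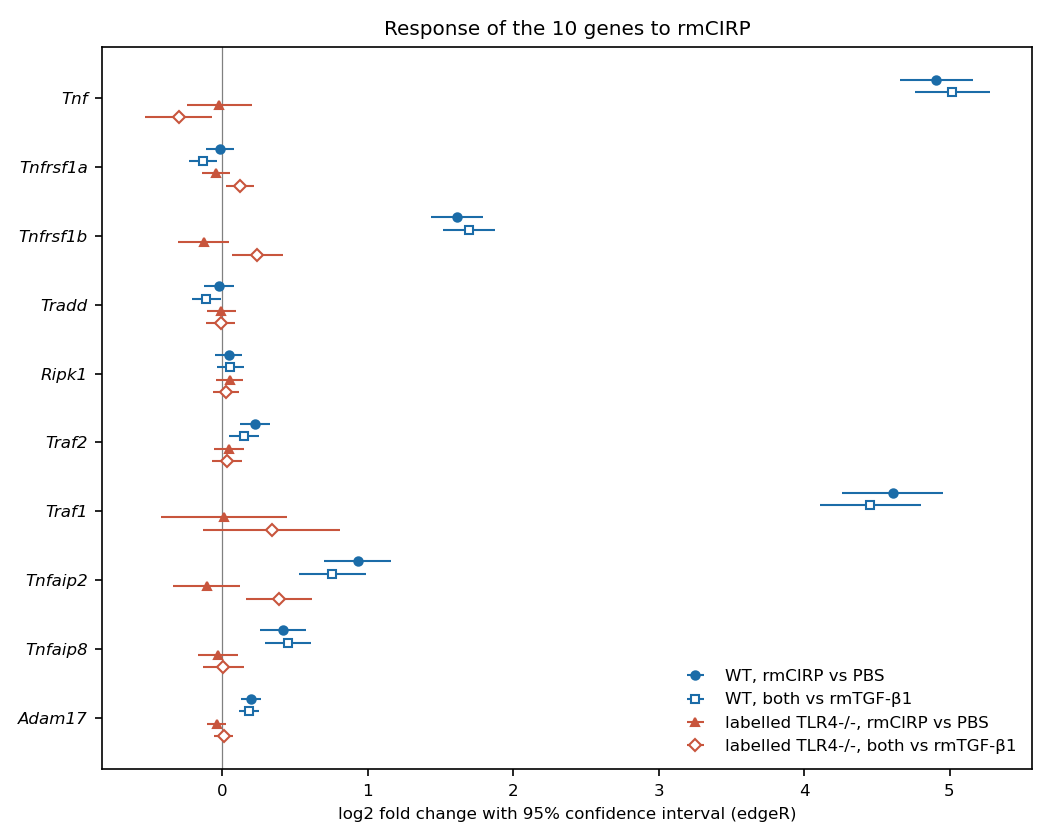
Log2 fold changes of the 10 genes with rmCIRP (points) and their 95% confidence intervals (bars) from edgeR, in WT (blue) and labelled TLR4-/- (red) libraries, without rmTGF-β1 (filled) and with it (open). Tnf and Traf1 lie between 4.46 and 5.02 in WT and between -0.30 and 0.34 in labelled TLR4-/- libraries, and the values of Tnfrsf1a, Tradd and Ripk1 lie between -0.13 and 0.12 in all 4 comparisons.

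With rmTGF-β1 present, 1 member rose with rmCIRP in labelled TLR4-/- libraries and none fell, and 2.69% of all genes tested passed (1.56% higher and 1.13% lower). Tnfaip2 was at 4421, 4787 and 5497 under rmTGF-β1, against 5248, 5918 and 8176 under both. The libraries overlapped and the highest value came from the third library, which stood apart over all genes. The log2 fold change of 0.39 (adjusted p = 0.0925) was 0.18 without that library (adjusted p = 0.551), and the call was also lost without the first or second rmTGF-β1 library (adjusted p = 0.411 and 0.25) or with only the libraries compared (adjusted p = 0.679). With the third libraries of both conditions left out it was 0.27 (adjusted p = 0.0678). Tnf, with 657, 800.0 and 934 against 538, 671 and 729.9, had a log2 fold change of -0.30 that did not pass (adjusted p = 0.171). It passed without the third rmTGF-β1 library (-0.42, adjusted p = 0.0263) or the first with both (-0.39, adjusted p = 0.0426), with DESeq2 (adjusted p = 0.0984) and with no filter on low counts (adjusted p = 4.7e-05), each time as a fall. Tnfrsf1b, at 0.24 (adjusted p = 0.15), passed with the replicate number as a block (adjusted p = 0.0664), with DESeq2 (adjusted p = 0.0802), with no filter on low counts (adjusted p = 7.6e-05), and without the third rmTGF-β1 library (adjusted p = 0.0431) or the first or second with both (adjusted p = 0.0317 and 0.0791).

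How far the genotypes differed in responding to rmCIRP was tested as 1 contrast. It was called for 7 members, each with a smaller response in labelled TLR4-/- libraries, and for 31.4% of all genes tested (17.1% higher and 14.3% lower). It was -4.93 for Tnf (SE 0.16, 95% CI -5.26 to -4.59, adjusted p = 1.2e-15) and -4.60 for Traf1 (SE 0.29, adjusted p = 7.7e-11). Both values are as large as the whole response in WT cells. For Tnfrsf1b it was -1.74 (SE 0.12, adjusted p = 4e-10), for Tnfaip2 -1.04 (SE 0.16, adjusted p = 3.3e-05) and for Tnfaip8 -0.45 (SE 0.10, adjusted p = 0.00219). The small response of Adam17 also differed (-0.24, SE 0.04, adjusted p = 0.00044). That of Traf2 (-0.18, SE 0.07, adjusted p = 0.067) lost its call without the third WT PBS library, the first WT rmCIRP library, or either the first or the third labelled TLR4-/- PBS library (adjusted p between 0.109 and 0.154), and with no filter on low counts (adjusted p = 0.2). For Tnfrsf1a, Tradd and Ripk1 the difference lay between -0.03 and 0.02.

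With rmTGF-β1 present the same contrast was called for 6 members, 5 with a lower and 1 with a higher value in labelled TLR4-/- libraries, and for 20.9% of all genes tested (10.5% higher and 10.4% lower). Tnf differed by -5.32 (SE 0.17, adjusted p = 7.7e-16), Traf1 by -4.12 (SE 0.30, adjusted p = 1.1e-09) and Tnfrsf1b by -1.46 (SE 0.12, adjusted p = 5.8e-09). The ligand, its inducible receptor and TRAF1 thus led in both settings. These settings share no libraries, but the same model fitted both and both compare the same genotypes, so they are not independent. Tnfaip8 (-0.44, adjusted p = 0.00393) and Adam17 (-0.17, adjusted p = 0.00994, and 0.159 with no filter on low counts) followed. Tnfrsf1a had the opposite sign, 0.25 (SE 0.07, adjusted p = 0.00894). Tnfaip2, at -0.37 (adjusted p = 0.121), passed without the third labelled TLR4-/- library with both (-0.57, adjusted p = 0.0005), without the first labelled TLR4-/- rmTGF-β1 library (-0.44, adjusted p = 0.081) or the first WT rmTGF-β1 library (-0.42, adjusted p = 0.1), with the replicate number as a block (adjusted p = 0.0869), with DESeq2 (adjusted p = 0.0949) and with no filter on low counts (adjusted p = 1.8e-06).

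Without any stimulus the genotypes already differed. With PBS, all 10 members were higher in labelled TLR4-/- than in WT libraries, where 47.1% of all genes tested passed, 23.2% higher and 24% lower. The median log2 fold change was 0.36 over the members and -0.02 over all genes tested. Tnf, at 967, 977 and 1009 against 234, 268 and 291, was 3.72-fold higher (log2 fold change 1.90, SE 0.12, adjusted p = 1.9e-11). Tnfaip8, at 1321, 1392 and 1403 against 467, 491 and 505, was 2.81-fold higher (log2 fold change 1.49, SE 0.07, adjusted p = 8.9e-14). These are the largest differences among the members, and the libraries were far apart. Traf1 was higher by 0.87 on the log2 scale (SE 0.24, adjusted p = 0.00511), Adam17 by 0.58 (SE 0.03, adjusted p = 8.6e-13) and Tnfrsf1b by 0.49 (SE 0.09, adjusted p = 7.3e-05). Ripk1 (0.18), Tradd (0.16) and Tnfrsf1a (0.12, adjusted p = 0.0462) were higher with no overlap of libraries, Traf2 (0.14, adjusted p = 0.0292) with overlap. Tnfaip2 (0.24, adjusted p = 0.0955) lost its call without the first or the third WT library or the first or second labelled TLR4-/- library (adjusted p between 0.158 and 0.28). Tnfrsf1a lost it without the first WT (adjusted p = 0.108) or the first labelled TLR4-/- library (adjusted p = 0.126), and Traf2 without the third WT (adjusted p = 0.104) or the third labelled TLR4-/- library (adjusted p = 0.108). With no filter on low counts, Traf2 (adjusted p = 0.106) and Tradd (adjusted p = 0.114) lost theirs.

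All 16 macrophage markers were also higher in the labelled TLR4-/- libraries with PBS, with a median log2 fold change of 2.20. Their summed normalized count was 94196 to 102634 in WT and 360990 to 413321 in labelled TLR4-/- libraries with PBS, a difference in the same direction as that of Tnf. Per 1000 of these counts, Tnf stood at 2.48 to 2.84 in WT and at 2.34 to 2.71 in labelled TLR4-/- libraries, ranges that overlap. Tnfaip8 stood at 4.79 to 4.96 in WT and 3.37 to 3.66 in labelled TLR4-/- libraries, and Tnfrsf1b at 21.7 to 22.3 and 7.49 to 8.47. Other marker lists differed too with PBS, where 23.2% of all genes tested were higher and 24% lower. Of 5 endothelial markers 4 were lower (median -1.48), and 2 of 2 tested epithelial markers were higher (median 1.76). Of 10 fibroblast markers 4 were lower and 1 higher, and of 4 smooth muscle and pericyte markers 2 and 1. Of 5 alveolar macrophage markers 1 was lower and 3 higher. The part of the cell content, macrophage or other, in the differences of the members was not tested. Each group's cells came from a pool of lungs, and the sources do not say how many pools a genotype had. Genotype and pool therefore cannot be told apart.

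**Figure D4:**
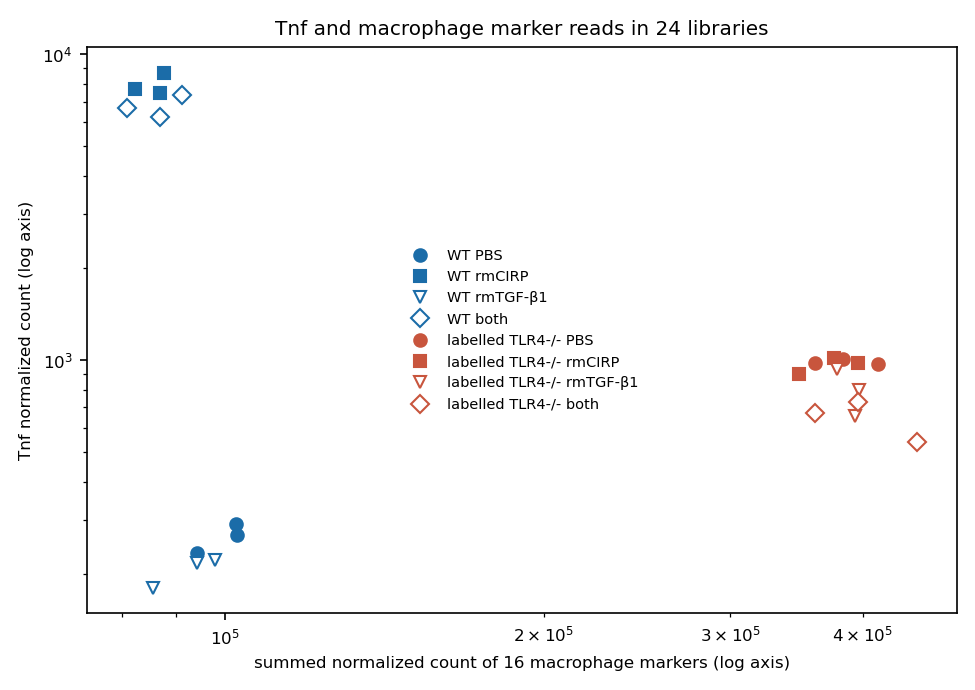
Normalized count of Tnf (vertical log axis) against the summed normalized count of 16 macrophage markers (horizontal log axis) in each of the 24 libraries, blue for WT and red for labelled TLR4-/-, with a symbol for each treatment. WT libraries with rmCIRP reach 8696 for Tnf at marker sums of 80778 to 91182, while the labelled TLR4-/- libraries lie between 538 and 1018 for Tnf at sums of 348686 to 450669.

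The genes around the members in the pathway were read from 7 lists of 115 genes that hold no member. The lists were chosen with earlier results of these data known, so their counts are a description. Their counts are to be read against all genes tested, of which 43.9% passed with rmCIRP in WT cells, 19.8% higher and 24.1% lower. In WT cells with rmCIRP, 15 of 16 NF-κB target genes rose and none fell, with a median log2 fold change of 1.33 against -0.02 over all genes tested. The largest rises were those of the chemokines Cxcl2 (6.40, SE 0.19), Cxcl1 (4.22, SE 0.40) and Ccl2 (2.63, SE 0.18). Of the 32 other genes of TNF receptor 1 complexes, 17 rose and 4 fell (median 0.15). The largest rises were Tnfaip3 (A20, a deubiquitinase that shuts off NF-κB; 2.38, SE 0.16), its partner Tnip1 (1.42) and the ubiquitin ligase Birc3 (1.28), and the largest falls were Map3k5 (-0.32), Traf5 (-0.26) and Rbck1 (-0.12). Of 12 genes that control Tnf and other AU-rich mRNAs, 10 rose and 1 fell (median 0.20). The ribonuclease gene Zc3h12a (1.21), the decay factor gene Zfp36l1 (0.70) and Mapkapk2 (0.40), the kinase that stabilises Tnf mRNA, rose, while the decay factor gene Zfp36l2 fell by 0.41.

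The shedding machinery around Adam17 was divided, with 3 of 7 genes higher and 3 lower (median -0.01). Rhbdf2 (iRhom2, which carries ADAM17 to the cell surface) rose by 0.85 (SE 0.09), Sppl2a, a protease that cleaves the membrane stub of TNF, by 0.33 and Rhbdf1 by 0.11, while Timp3, the inhibitor of ADAM17, fell by 0.54 (SE 0.07), Adam10 by 0.30 and Frmd8 by 0.28. Of 6 other genes with Tnfaip symbols, 3 rose and 1 fell (median 0.43). Among them were Tnfaip3, listed above, Tnfaip6 (0.83, adjusted p = 0.0733) and Tnfaip8l2 (-1.26). The list follows the symbols, and induction of these genes by TNF was not tested. Of 22 tested genes of the receptor superfamily (26 listed), 5 rose and 5 fell (median 0.01), a share close to that of all genes tested. They included Cd40 (3.29, SE 0.10), Tnfrsf9 (0.75) and Fas (0.57), the largest rises where normalized counts averaged 50 or more over all libraries. The largest falls by this rule were Tnfrsf13b (-0.998), Tnfrsf11a (-0.68) and Ngfr (-0.59). In WT, Tnfrsf13b averaged only 42.9 with PBS and 21.5 with rmCIRP, and Ngfr 69.3 and 46.3. Of 13 tested ligands (17 listed), 6 rose and 2 fell (median 0.37), with Tnfsf18 (1.33), Tnfsf11, the ligand RANKL (1.14), and Tnfsf8 (0.81) the largest rises by the same rule and Tnfsf12 (-0.27) the only fall by it.

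In labelled TLR4-/- libraries with rmCIRP, no gene of the 7 lists passed, and the list medians lay between -0.03 and 0.01, where 0% of all genes passed. The genotype difference was called for 31.4% of all genes tested, 17.1% higher and 14.3% lower, with a median of 0.03. Of the 16 NF-κB target genes, 15 were lower and none higher (median -1.29). Of the 32 receptor complex genes, 14 were lower and 1 higher (median -0.14), of the 12 mRNA control genes 6 and 1 (median -0.21), and of the 13 ligands 5 and 1 (median -0.40). The other lists were not so one-sided. Of the 22 receptor superfamily genes, 4 were lower and 6 higher (median -0.01). The split was 3 and 3 for the 7 shedding genes (median 0.01). For the 6 other genes with Tnfaip symbols it was 1 and 1 (median -0.44).

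**Figure D5:**
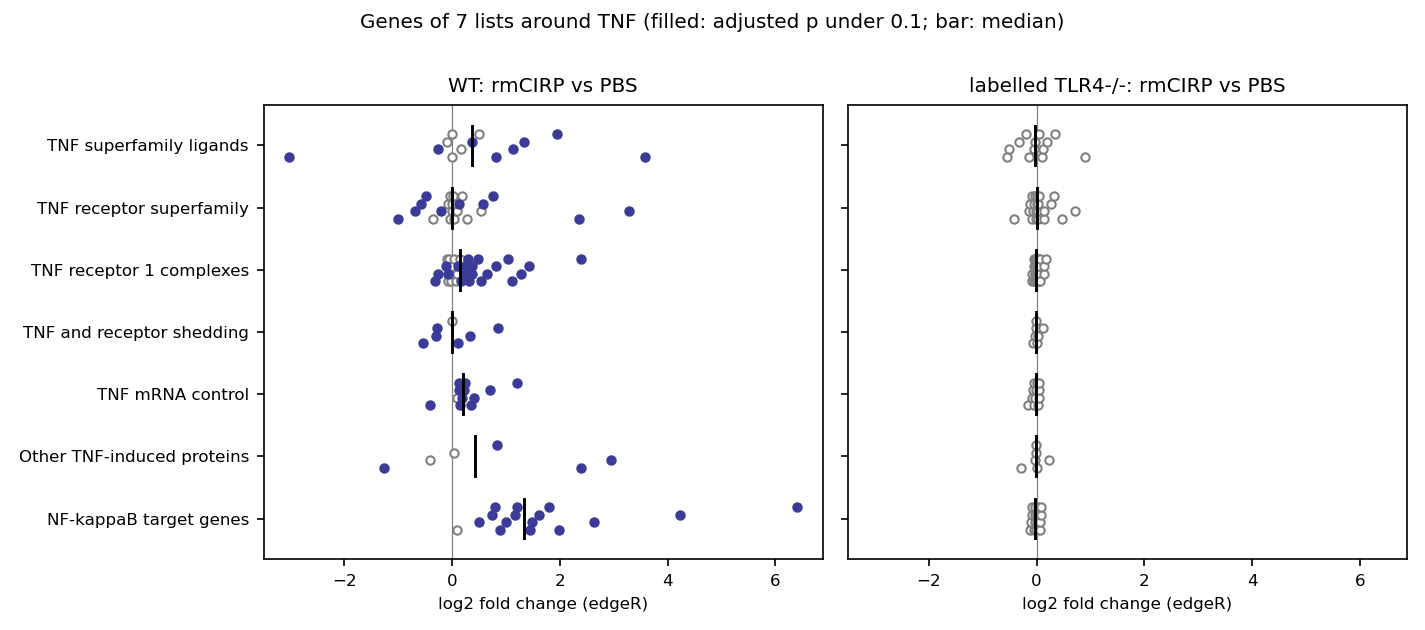
Log2 fold changes with rmCIRP against PBS of the tested genes of 7 lists around TNF, in WT (left) and labelled TLR4-/- (right) libraries, filled where the adjusted p was under 0.1 and with a bar at each list's median. The NF-κB target genes reach 6.40 and have a median of 1.33 in WT, and no point is filled in the labelled TLR4-/- panel.

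The genes whose pattern was most like that of a member were ranked by Pearson's r of log2 CPM (reads scaled to library size) over the 24 libraries, among 12301 genes, as a description. The points fall into the 2 genotypes and, in WT, into libraries with and without rmCIRP. For Tnf they were Clec4e, a pattern recognition receptor of macrophages, Parp14, Trim21, Trim30a and AW112010, with r between 0.988 and 0.993. Clec4e had mean normalized counts of 612 with PBS and 10278 with rmCIRP in WT, and 1599 and 1574 in labelled TLR4-/- libraries. For Tnfrsf1b they were Il1rn (the interleukin-1 receptor antagonist), Tnfaip3, Slc7a11, Acp5 and Pnp, with r between 0.982 and 0.989. For Traf1 they were Cxcl2, Acsl1, Acod1, Hcar2 and Tnip1, with r between 0.984 and 0.990. Among the members, Tnf, Tnfrsf1b and Traf1 had r between 0.937 and 0.945 with one another, while Adam17 and Tnfaip8, both higher in all labelled TLR4-/- libraries, had an r of 0.995 with each other and of at most 0.10 in size with Tnf.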

How the data were processed

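Total RNA libraries were made with the TruSeq Stranded Total RNA kit, and, per the study's methods, the authors used STAR2 with a mouse GENCODE reference for alignment and ht-seq for counting. The submitters' processing notes name FastQC, HTSeq and the build NCBIM37. The annotation release and the strand option are not given in the sources used here. For each library the authors deposited raw counts of reads per gene symbol, without normalization. The 5 tally lines per file (14.5% to 16.1% of its reads) were left out.

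Tests used R 4.3.3 with edgeR 4.0.16: filterByExpr by condition, TMM, one mean for each of the 8 conditions over all 24 libraries, glmQLFit and the quasi-likelihood F-test, with Benjamini-Hochberg adjustment over 16258 genes and a threshold of 0.1 as in the study. There were 12 comparisons. The SE was taken as |log2 fold change| over √F. Normalized counts are counts divided by DESeq2 1.42.0 size factors and describe levels only. The fit was tested on simulated data.

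The members, gene lists and markers were chosen with earlier results of these data known. From each list, the genes named are up to 3 with the largest rise and up to 3 with the largest fall in WT cells with rmCIRP, where the test passed and normalized counts averaged 50 or more over all libraries. For Tnf, Tnfrsf1b and Traf1, the 5 most correlated genes are named. Tlr4 was read as a check of the label, which its gene counts did not provide. The libraries left out for their distance from their replicates were chosen after seeing the data.

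The alternatives were RLE normalization, the replicate number as a block, all genes with a count, genes with a mean count of at least 10, an adjusted p under 0.05, only the libraries compared, DESeq2, and leaving out each library. Promoters came from RefSeq (GRCm38.p6), exon lengths, transcripts and overlaps from GENCODE M21 (GRCm38). No coordinates were converted between builds.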

Additional observations from a re-analysis of the deposited data

Results flagged for a closer look

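The response to rmCIRP differed between WT and labelled TLR4-/- libraries in the test of the difference itself for 7 genes: Tnf (-4.93 on the log2 scale), Traf1 (-4.60), Tnfrsf1b (-1.74), Tnfaip2 (-1.04), Tnfaip8 (-0.45), Adam17 (-0.24) and Traf2 (-0.18). With rmTGF-β1 present it differed for 6 genes: Tnf (-5.32), Traf1 (-4.12), Tnfrsf1b (-1.46), Tnfaip8 (-0.44), Adam17 (-0.17) and, in the opposite direction, Tnfrsf1a (0.25). No test for a library far from its replicates was made within a condition, because each has 3.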

How the results depend on the processing

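The number of members called moved by over 1.5 times in 4 of the 12 comparisons. For rmTGF-β1 in WT it was 2 (RLE, a mean count of 10, only the libraries compared, DESeq2) or 3 (no filter), and 0 to 2 with 1 library left out. For both proteins against rmCIRP in WT it was 2 with an adjusted p under 0.05 or DESeq2, and 1 to 4 with 1 library left out. For rmTGF-β1 in labelled TLR4-/- libraries it was 1 with an adjusted p under 0.05, and 1 to 2 with 1 library left out. For both against rmTGF-β1 there it was 3 (no filter, DESeq2), 2 (replicate block) or 0 (adjusted p under 0.05, only the libraries compared), and 0 to 4 with 1 library left out.

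Signs turned for values near 0: Tnfrsf1a with rmCIRP in WT was 0.0017 with a filter at a mean count of 10 and 0.0025 with only the libraries compared. With 1 library left out it ran from -0.050 to 0.019, Tradd there from -0.050 to 0.014, Tnf and Traf1 with rmCIRP in labelled TLR4-/- libraries from -0.065 to 0.019 and -0.33 to 0.27, the genotype difference of Tnf with rmTGF-β1 from -0.070 to 0.18, and the WT interaction of Traf1 from -0.33 to 0.0095. With the replicate number as a block, 7 members were called for rmCIRP in WT. Same-numbered libraries had a mean correlation of deviations of 0.012 over 84 pairs (-0.117 to 0.369), so the numbers were not taken as pairs. The causes were not tested. In the 6 conditions other than WT with rmCIRP and WT with both proteins, Traf1 had at most 72.7 normalized counts, so depth limits what can be said of it there.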
